A study of Mus musculus with 12 samples.

Results

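The 10 genes described here mark the lining of islet blood vessels and of lymphatic vessels: Pecam1, Cdh5, Kdr, Flt1, Tek, Plvap, Vwf, Prox1, Mmrn1 and Flt4. They were picked by symbol, with earlier results of these data known, from the 24421 genes of the deposited count table, and all 10 passed the filter on low counts. Pancreatic islets were profiled by RNA sequencing in 12 libraries that form 6 groups of 2, lettered A and B. Knockout mice were Bmal1fl/flRIPCreERT/+, labelled as a beta-cell specific knockout, and control mice were Bmal1fl/fl. Both genotypes were sampled 24 h after citrate buffer (VEH), 24 h after streptozotocin (STZ, which poisons beta cells) and 4 weeks (4 wk) after STZ.

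Several features limit these groups as a model of islet vessels. The Cre is driven by the rat insulin promoter and is tamoxifen-inducible, so the deletion is aimed at beta cells and not at endothelium, and all 12 libraries come from mice with floxed Bmal1. The groups include no mice with Cre and without floxed Bmal1. All VEH libraries are labelled 24 h, so 4 wk after STZ against VEH mixes treatment with time. The sources used here give no ages. The labels do not say whether A and B are separate animals, so p-values here refer to the spread between libraries, and that spread may be technical. With 2 libraries a group, a lack of overlap between groups is a description only. Its share over all genes was not counted.

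Islets are supplied by a dense network of fenestrated capillaries, which beta cells keep in place by secreting vascular endothelial growth factor A (VEGF-A). VEGF-A acts on endothelial cells through the receptor KDR, while FLT1 binds it more tightly and signals little, so that FLT1 limits the ligand that reaches KDR. FLT4, the receptor for VEGF-C, and the transcription factor PROX1 are used as markers of lymphatic endothelium, which drains the tissue around the islets. Several of the genes are also read in other cells: Pecam1 in leukocytes and platelets, Vwf and Mmrn1 in megakaryocytes and platelets, and Prox1 in hepatocytes and in endocrine cells.

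Proximal promoters are shown for the 3 VEGF receptor genes, which differed in direction 24 h after STZ, and for Mmrn1, which had the widest range of all 10 genes. Each line gives the 250 bases before the annotated start, 5′ to 3′ on the strand of the gene, from RefSeq on GRCm38.p6. Capitals mark NGGAAG, the core of an ETS factor motif, on either strand (CTTCCN on the other). The Kdr sequence is chr5:75978456-75978705 (minus strand), Flt1 chr5:147726012-147726261 (minus strand), Flt4 chr11:49609429-49609678 (plus strand) and Mmrn1 chr6:60944067-60944316 (plus strand).
Kdr: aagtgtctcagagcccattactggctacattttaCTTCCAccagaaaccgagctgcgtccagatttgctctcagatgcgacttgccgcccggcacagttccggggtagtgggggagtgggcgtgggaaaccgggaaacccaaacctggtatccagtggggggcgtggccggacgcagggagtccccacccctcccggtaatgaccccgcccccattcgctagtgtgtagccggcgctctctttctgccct
Flt1: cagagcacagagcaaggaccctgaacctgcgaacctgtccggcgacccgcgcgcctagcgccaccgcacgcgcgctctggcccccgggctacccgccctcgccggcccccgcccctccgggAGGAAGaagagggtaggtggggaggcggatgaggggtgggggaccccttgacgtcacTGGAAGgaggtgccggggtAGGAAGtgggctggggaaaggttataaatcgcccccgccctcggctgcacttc
Flt4: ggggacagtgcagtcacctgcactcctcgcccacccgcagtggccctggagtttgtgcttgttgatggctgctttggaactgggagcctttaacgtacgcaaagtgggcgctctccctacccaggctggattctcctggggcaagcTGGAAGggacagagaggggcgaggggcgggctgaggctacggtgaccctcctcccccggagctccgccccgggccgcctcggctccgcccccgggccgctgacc
Mmrn1: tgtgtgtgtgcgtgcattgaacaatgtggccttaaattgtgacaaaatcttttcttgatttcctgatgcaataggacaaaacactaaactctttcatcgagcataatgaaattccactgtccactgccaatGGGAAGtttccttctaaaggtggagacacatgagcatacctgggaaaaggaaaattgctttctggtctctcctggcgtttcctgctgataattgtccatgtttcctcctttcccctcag

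Promoter sequences were found for 6 of the 10 genes: the 4 shown, Tek and Prox1. NGGAAG starts 216 bases before the start of Kdr, 129, 72 and 53 bases before that of Flt1, 104 bases before that of Flt4 and 119 bases before that of Mmrn1. It is a frequent motif, present in 63.9% of 32851 promoter windows of the same length. The Kdr window also holds GTGGGAA, a motif of the Notch effector RBPJ found in 5.42% of windows, 129 bases before the start. CACGTG, the E-box bound by CLOCK and BMAL1 and present in 6.02% of windows, and the GATA motif AGATAA, present in 9.99%, were searched on both strands and were in none of the windows of the 6 genes. A match describes these letters and is not evidence of a bound site, and the motifs searched do not overlap in these windows.

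The libraries held 101772241 to 127207523 counts each. Arntl, which encodes BMAL1, checks the genotype labels through its exon 8 (chromosome 7, 113284999 to 113285156, mm10), whose coverage relative to the transcript mean was 0.627 to 1.37 in the 6 knockout libraries and 1.56 to 1.99 in the 6 control libraries, with no overlap. The labels do not state which exon is floxed, and exon 8 was picked because earlier results of these data named it, so this is no independent check. The gene total does not check the labels, at 17.8 and 19.9 CPM (counts scaled to library size) in knockout VEH islets and 8.79 and 8.36 CPM in control VEH islets. The 2 knockout STZ 24 h libraries stood apart from the rest in their liver, lymphoid, macrophage and beta-cell markers. Marker lists summed to 17100 to 17700 CPM for liver in those 2 libraries, against 5020 to 5120 CPM in control STZ 24 h islets, and to 364 to 374 CPM for lymphoid tissue, against 3.52 to 3.81 CPM. Of the 10 lymphoid genes, 0 were at 0 in both knockout STZ 24 h libraries and 4 in both control STZ 24 h libraries. Macrophage markers summed to 1630 to 1650 CPM, against 200 to 205 CPM, and beta-cell markers to 22800 to 25300 CPM, against 120000 to 129000 CPM. Acinar markers, from the digestive part of the pancreas, summed to 275000 to 289000 CPM in knockout STZ 24 h islets and to 142000 to 147000 CPM in control STZ 24 h islets. They summed to 242000 to 258000 CPM in control VEH islets and to 51200 to 58700 CPM in knockout VEH islets. A large share of the RNA in libraries labelled as predominantly beta cells was thus exocrine, and not in knockout STZ 24 h islets alone. The part of these tissues in the results below was not tested. Both knockout STZ 24 h libraries share the pattern, so no value of that group can be given without it.

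Levels per length, in TPM (length-scaled values) deposited by the authors and summed per gene, placed Pecam1, Kdr and Plvap highest. Over the 12 libraries Pecam1 ranged from 22.2 to 67.1 TPM, Kdr from 25.7 to 58.0 TPM and Plvap from 18.3 to 62.1 TPM. Flt1 ranged from 9.95 to 27.8 TPM, Prox1 from 8.70 to 22.6 TPM and Cdh5 from 7.11 to 26.7 TPM. The lowest levels were those of Tek (4.27 to 10.6 TPM), Flt4 (1.42 to 9.57 TPM), Vwf (0.576 to 4.11 TPM) and Mmrn1 (0 to 9.31 TPM). Blood endothelial markers were thus read in every library, and Mmrn1 was the 1 gene at 0 in any. TPM depends on the whole make-up of a library, and comparisons between groups below use CPM scaled by the trimmed mean of M-values (TMM).

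**Figure D1:**
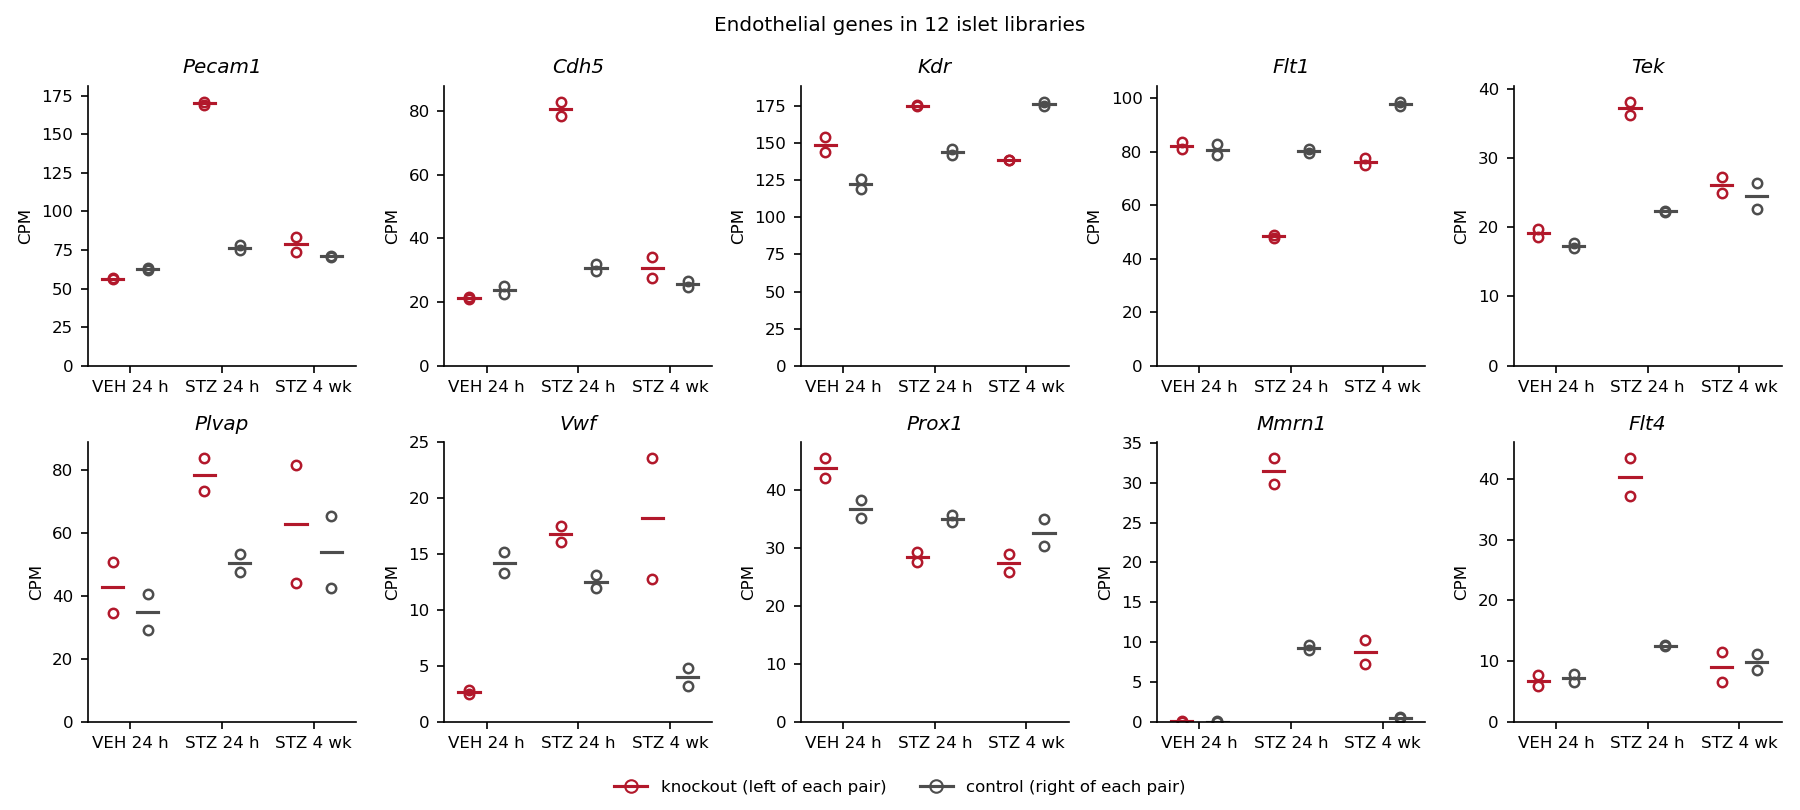
Levels of the 10 genes in each of the 12 libraries, in TMM-scaled CPM (linear axes from 0); circles are libraries, bars are means of 2, red is knockout and grey is control. Pecam1, Cdh5, Tek and Flt4 are highest in both knockout STZ 24 h libraries, where Flt1 is lowest; under pan-endocrine scaling Flt1 is instead higher in knockout than in control at that time.

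At 24 h after STZ, the knockout islets had more of the junction genes Pecam1 and Cdh5 than the control islets. They also had more Kdr, Tek, Mmrn1 and Flt4, and less Flt1. With edgeR's quasi-likelihood test and Benjamini-Hochberg adjustment, 6 of the 10 genes were higher and 1 was lower. Over all 17411 genes tested, 23.7% were called higher and 19.4% lower. The median log2 fold change of the 10 genes was 0.69, beside 0.00 over all genes tested. In these bulk samples, a change in the number of endothelial cells and a change in RNA per cell cannot be told apart. The part of liver, lymphoid, macrophage and acinar RNA in these values was not tested.

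Pecam1, an adhesion molecule of endothelial cell contacts, had 169 and 171 CPM in knockout STZ 24 h islets, against 74.7 and 78.4 CPM in control STZ 24 h islets. Its 2 knockout libraries lay above all other 10 libraries, and the log2 fold change was 1.15 (SE 0.09, adjusted p = 2.42e-05). Cdh5, which encodes VE-cadherin of the adherens junction, had 78.5 and 82.9 CPM in knockout STZ 24 h islets and 29.6 and 31.9 CPM in control STZ 24 h islets. The groups did not overlap and the log2 fold change was 1.39 (SE 0.12, adjusted p = 3.72e-05). Both genes kept their direction and call in each alternative setting and with each library left out.

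Tek encodes the receptor of the angiopoietins, which holds vessels in a quiescent state. It had 38.1 and 36.2 CPM in knockout STZ 24 h islets, against 22.4 and 22.2 CPM in control STZ 24 h islets. This was a log2 fold change of 0.74 (SE 0.11, adjusted p = 0.000723), again with no overlap between the groups. Plvap, which builds the diaphragms of capillary fenestrae, had 73.2 and 83.7 CPM in knockout STZ 24 h islets and 47.6 and 53.4 CPM in control STZ 24 h islets. These groups did not overlap either, but the log2 fold change of 0.64 did not pass the test (SE 0.33, adjusted p = 0.154). Vwf, the adhesive glycoprotein that endothelial cells store for clotting, had 16.1 and 17.5 CPM in knockout STZ 24 h islets and 12 and 13.1 CPM in control STZ 24 h islets, a log2 fold change of 0.42 that did not pass (SE 0.28, adjusted p = 0.269).

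The 3 VEGF receptors did not move alike. Flt1 had 47.9 and 48.9 CPM in knockout STZ 24 h islets, against 79.6 and 80.9 CPM in control STZ 24 h islets. The 2 knockout libraries had the lowest Flt1 values of all 12. Its log2 fold change was -0.73 (SE 0.09, adjusted p = 0.000166), and 1.15 when libraries were scaled to the summed counts of pan-endocrine genes. Kdr had 176 and 175 CPM in knockout STZ 24 h islets and 142 and 146 CPM in control STZ 24 h islets. Its log2 fold change was 0.28 (SE 0.09, adjusted p = 0.0283), and total-count scaling gave 0.03 (adjusted p = 0.814). The Kdr call was also lost with any 1 of the 4 libraries compared left out, at an adjusted p of 0.101 to 0.159. Flt4 had 37.2 and 43.4 CPM in knockout STZ 24 h islets, against 12.5 and 12.6 CPM in control STZ 24 h islets, a log2 fold change of 1.68 (SE 0.27, adjusted p = 0.00116) with no overlap.

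Mmrn1 and Prox1, the other genes named as lymphatic, also split, but Prox1 is not read in lymphatic cells alone. Mmrn1, which encodes a secreted adhesive protein of lymphatic endothelium and platelets, had 33.1 and 29.9 CPM in knockout STZ 24 h islets, against 9.68 and 8.98 CPM in control STZ 24 h islets. Its groups did not overlap and the log2 fold change was 1.76 (SE 0.62, adjusted p = 0.0483), a call that ended under total-count scaling (adjusted p = 0.0747), without the filter (adjusted p = 0.0524), with the DESeq2 Wald test (adjusted p = 0.257) and with any 1 of the 4 libraries compared left out (adjusted p = 0.138 to 0.2). Prox1, the transcription factor that sets lymphatic identity, had 27.6 and 29.3 CPM in knockout STZ 24 h islets and 35.7 and 34.4 CPM in control STZ 24 h islets. That log2 fold change of -0.30 did not pass the test (SE 0.11, adjusted p = 0.06), and it was 1.58 under pan-endocrine scaling. Prox1 is also read in endocrine cells and hepatocytes. Pan-endocrine genes had a median log2 fold change of -1.67 in this comparison, and the part of these cells in the Prox1 value was not tested.

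Scaling set the direction of several of these values. Pan-endocrine scaling moved the median log2 fold change of all genes by 1.88 in this comparison. Under it all 10 genes were called higher, with a median of 2.56, but so were 14866 of all 17411 genes tested. Total-count scaling moved the median of all genes by -0.24 and gave the 10 genes a median of 0.43. The pan-endocrine genes themselves summed to 5400 to 5450 CPM in knockout STZ 24 h islets and 19900 to 20000 CPM in control STZ 24 h islets.

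**Figure D2:**
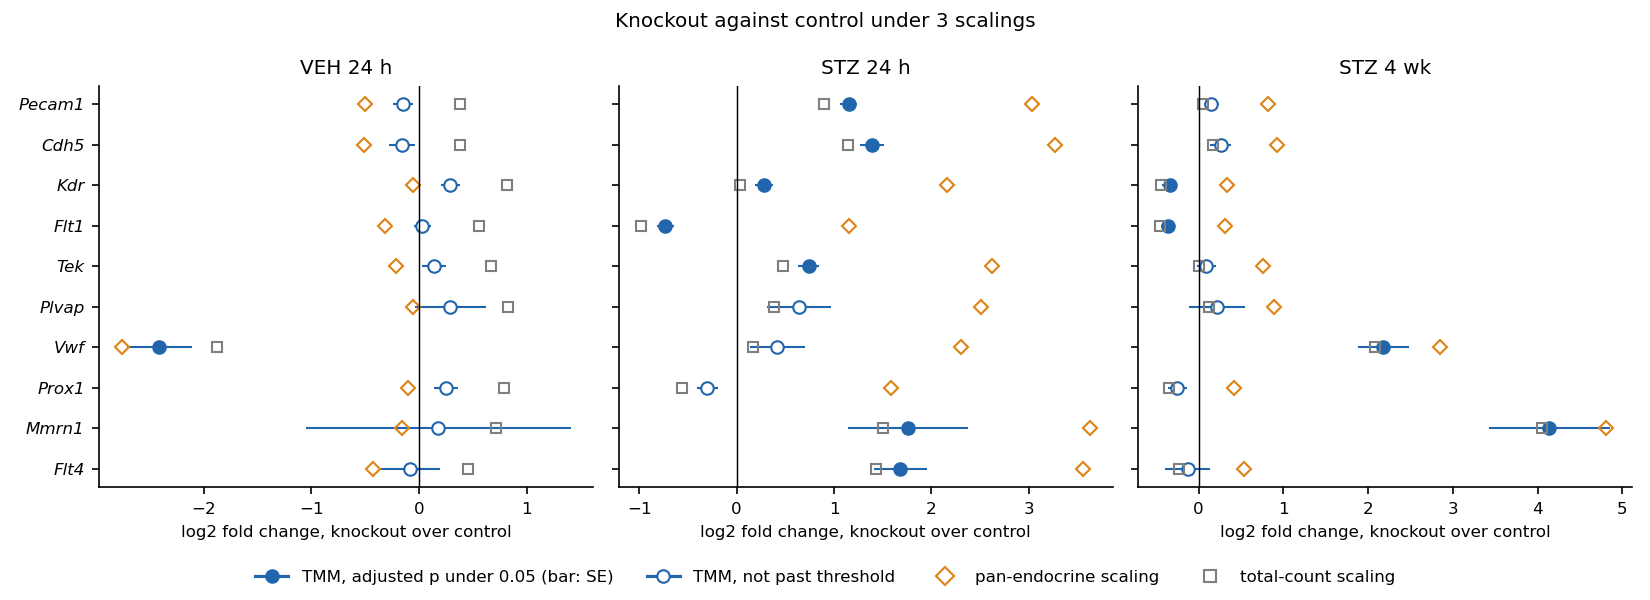
Log2 fold change of each gene, knockout over control, in VEH 24 h, STZ 24 h and STZ 4 wk islets under 3 scalings; bars are SE of the TMM fit and filled circles passed an adjusted p of 0.05. At 24 h after STZ, Flt1 and Prox1 are below 0 with TMM and above 0 with pan-endocrine scaling.

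Ratios within a library do not depend on how libraries are scaled, and they are given as a description. Relative to Pecam1, in TPM, Flt1 was 0.149 and 0.149 in knockout STZ 24 h islets, against 0.557 and 0.540 in control STZ 24 h islets. Kdr was 0.629 and 0.613 of Pecam1 in knockout STZ 24 h islets and 1.14 and 1.12 in control STZ 24 h islets. Prox1 was 0.130 and 0.136 in knockout STZ 24 h islets and 0.379 and 0.349 in control STZ 24 h islets. All of these ratios were lower in knockout STZ 24 h islets than in every other library. Prox1 is also read in endocrine cells and hepatocytes, and their part in its ratio was not tested.

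Tek relative to Pecam1 was also lowest there, at 0.158 and 0.147, against 0.209 and 0.198 in control STZ 24 h islets. Cdh5 was highest there, at 0.384 and 0.399 in knockout STZ 24 h islets, against 0.326 and 0.335 in control STZ 24 h islets. Flt4 was likewise highest, with 0.124 and 0.143 in knockout STZ 24 h islets and 0.0939 and 0.0907 in control STZ 24 h islets. The ratio of Flt1 to Kdr, the receptor that limits VEGF-A to the one that signals, was 0.237 and 0.243 in knockout STZ 24 h islets and 0.487 and 0.480 in control STZ 24 h islets. In the other 10 libraries it lay between 0.467 and 0.576. Pecam1 is also expressed by leukocytes, and macrophage and lymphoid markers were highest in knockout STZ 24 h islets; their part in the ratios to Pecam1 was not tested, and the ratio of Flt1 to Kdr does not use Pecam1.

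**Figure D3:**
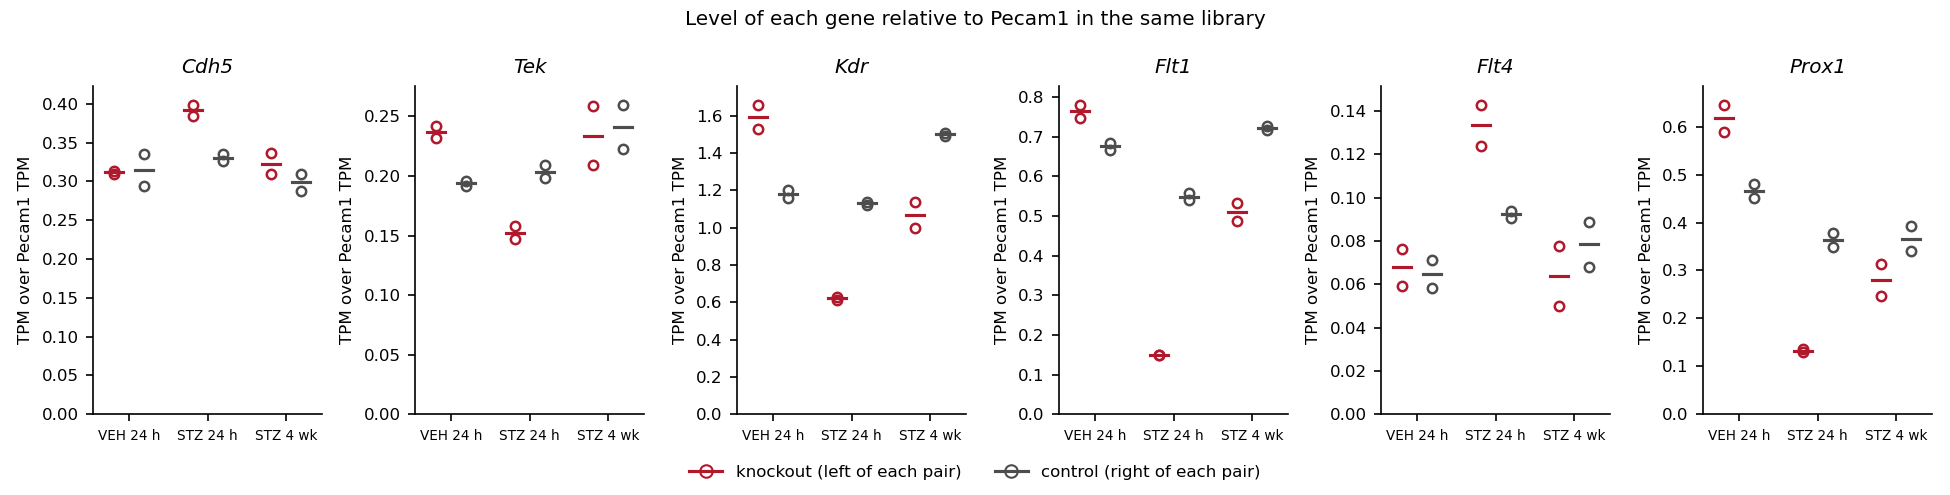
TPM of 6 genes divided by the TPM of Pecam1 in the same library (linear axes from 0); circles are libraries, bars are means of 2, red is knockout and grey is control. Kdr, Flt1, Prox1 and Tek are lowest relative to Pecam1 in the 2 knockout STZ 24 h libraries, and Flt4 and Cdh5 are highest there.

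Flt1 also makes a soluble form, known to end in the intron after exon 13, that binds VEGF without a kinase domain. The deposited annotation holds the full-length transcript alone, so the forms were not counted apart, but exon coverage can be read on both sides of that point. Mean coverage of exons 1 to 13 over exons 14 to 29 was 1.10 and 1.27 in knockout STZ 24 h islets and 1.23 and 1.26 in control STZ 24 h islets, which overlap. Over all 12 libraries this ratio was 1.10 to 1.44 for Flt1 and 0.773 to 0.964 for Kdr, which has the same number of exons (30). Flt1 coverage before exon 14 thus exceeded that after it in every library, and Kdr coverage did not.

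**Figure D4:**
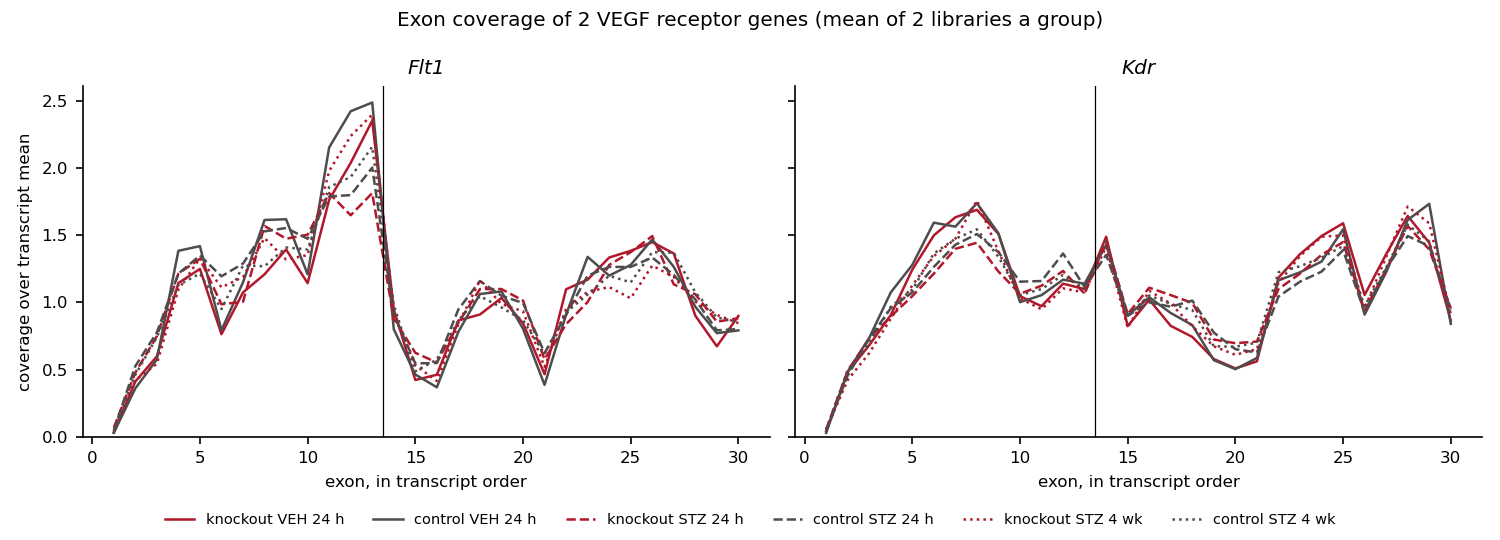
Coverage of each of the 30 exons of Flt1 and Kdr over the transcript mean (group means of 2 libraries, in transcript order); the vertical line marks the boundary after exon 13. The Flt1 lines of all 6 groups drop after exon 13, and those of Kdr do not drop there in the same way.

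Among the 10 genes, Pecam1 has 4 annotated transcripts, Tek 3, Mmrn1 2 and the other genes 1 each. Of the 3 Tek transcripts, 1 had 0 counts in every library. Both Mmrn1 transcripts were read in every STZ library except 1 of control STZ 4 wk islets, which had the longer one alone.

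In VEH islets the 2 genotypes differed in 1 of the 10 genes. The test called 0 genes higher and 1 lower, beside 1.96% and 7.68% of all genes tested. Vwf had 2.87 and 2.48 CPM in knockout VEH islets, against 15.2 and 13.3 CPM in control VEH islets. Its groups were far apart, with a log2 fold change of -2.41 (SE 0.30, adjusted p = 0.00103) that held in each setting and with each library left out.

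The remaining 9 genes had log2 fold changes between -0.16 (Cdh5) and 0.29 (Kdr and Plvap), and the median of the 10 was 0.08. Kdr had 144 and 154 CPM in knockout VEH islets and 119 and 126 CPM in control VEH islets, a difference that did not pass (adjusted p = 0.082) and was -0.06 under pan-endocrine scaling. Mmrn1 was at 15 and 0 counts in knockout VEH islets and at 9 and 0 counts in control VEH islets, too few for a comparison. Pan-endocrine scaling moved the median of all genes by -0.33 and total-count scaling by 0.53 here, so small differences take their sign from the scaling.

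Some pericyte and smooth muscle genes were lower, like Vwf, in knockout VEH islets. Of 12 pericyte and smooth muscle genes, 0 were higher and 6 were lower in knockout VEH islets, beside 1.96% and 7.68% of all genes tested. Their median log2 fold change was -0.50. Their summed level was 109 to 119 CPM in knockout VEH islets and 280 to 285 CPM in control VEH islets. Myh11, smooth muscle myosin, had 9.86 and 8.15 CPM in knockout VEH islets and 66.9 and 65.4 CPM in control VEH islets (log2 fold change -2.88, SE 0.23, adjusted p = 7.74e-05). Acta2, smooth muscle actin, had 6.55 and 4.34 CPM in knockout VEH islets, against 58.5 and 57.0 CPM in control VEH islets (log2 fold change -3.41, SE 0.26, adjusted p = 6.54e-05). Acinar markers also differed, with a sum of 51200 to 58700 CPM in knockout VEH islets and 242000 to 258000 CPM in control VEH islets. Of the 12 genes, 1 (Cnn1, smooth muscle calponin) was at 0 in both knockout VEH libraries and 0 were at 0 in both control VEH libraries. The part of these tissues in the Vwf result was not tested.

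At 4 wk after STZ, Vwf differed in the opposite direction. It had 12.8 and 23.6 CPM in knockout STZ 4 wk islets, against 3.24 and 4.80 CPM in control STZ 4 wk islets. The groups did not overlap, although the 2 knockout libraries differed widely, and the log2 fold change was 2.18 (SE 0.30, adjusted p = 0.000681). Mmrn1 had 10.3 and 7.27 CPM in knockout STZ 4 wk islets, against 0.559 and 0.437 CPM in control STZ 4 wk islets. Its log2 fold change was 4.14 (SE 0.71, adjusted p = 0.00242), with no overlap.

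The VEGF receptors of blood vessels were lower in knockout islets at this time with TMM scaling and higher with pan-endocrine scaling. Kdr had 139 and 139 CPM in knockout STZ 4 wk islets, against 178 and 175 CPM in control STZ 4 wk islets, a log2 fold change of -0.34 (SE 0.09, adjusted p = 0.0175) that was 0.33 under pan-endocrine scaling. Flt1 had 75.0 and 77.6 CPM in knockout STZ 4 wk islets and 98.7 and 97.0 CPM in control STZ 4 wk islets, a log2 fold change of -0.36 (SE 0.08, adjusted p = 0.0126) that was 0.31 under pan-endocrine scaling. Neither gene's groups overlapped. Without control STZ 4 wk A, the adjusted p was 0.0732 for Kdr and 0.0589 for Flt1, and without control STZ 4 wk B it was 0.055 for Kdr.

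Counts for this comparison were 2 higher and 2 lower, beside 19.9% and 7.89% of all genes tested, and the median of the 10 genes was 0.12. Pan-endocrine scaling moved the median of all genes by 0.68 and called 9 of the 10 genes higher and 0 lower. Over all 17411 genes tested it called 8898 higher and 109 lower. The other 6 genes did not pass: Pecam1 had 73.7 and 83.4 CPM in knockout STZ 4 wk islets and 71.1 and 70.6 CPM in control STZ 4 wk islets, and Flt4 had 6.53 and 11.5 CPM in knockout STZ 4 wk islets and 8.60 and 11.2 CPM in control STZ 4 wk islets. Flt4 groups overlapped at 4 wk and were apart at 24 h. Pericyte and smooth muscle genes again went with Vwf, with 6 of 12 higher, 0 lower and a summed level of 179 to 238 CPM in knockout STZ 4 wk islets and 133 to 149 CPM in control STZ 4 wk islets. Their part in the Vwf result was not tested.

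**Figure D5:**
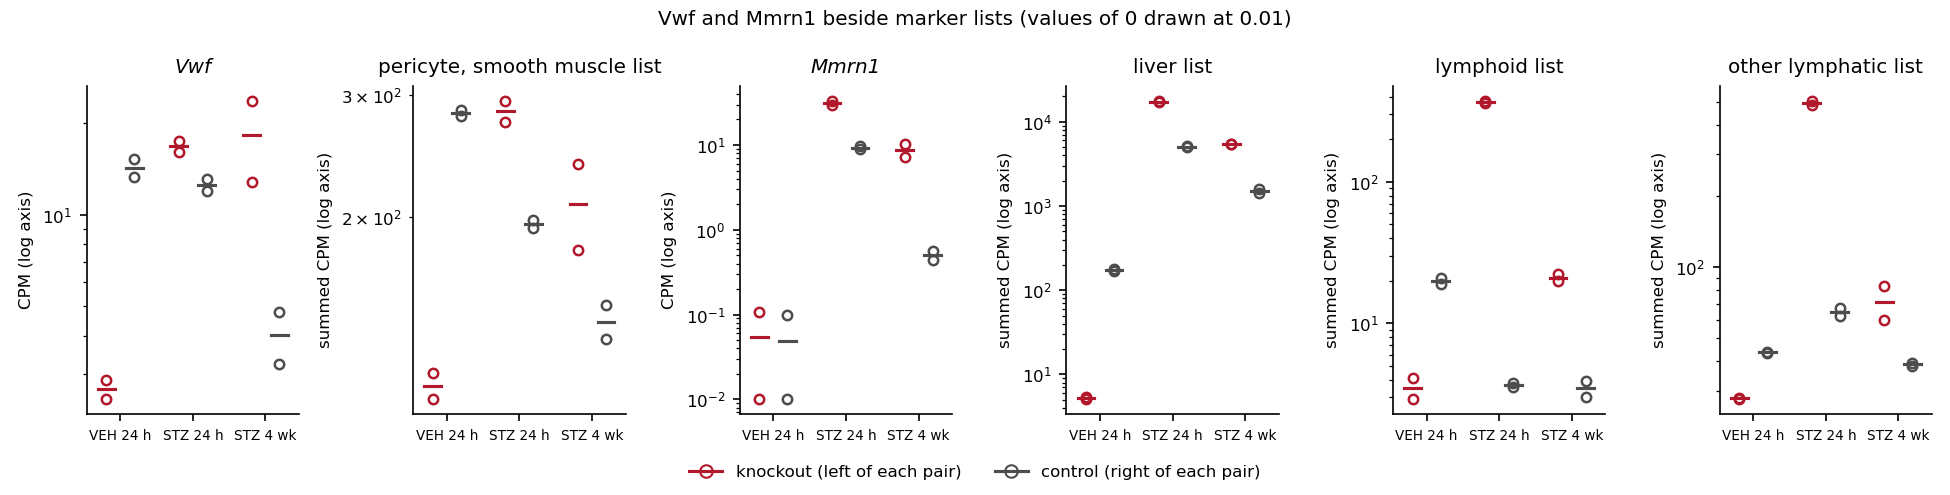
Vwf and Mmrn1 in CPM, beside the summed CPM of marker lists for pericytes and smooth muscle, liver, lymphoid tissue and other lymphatic genes (log axes; 0 is drawn at 0.01); circles are libraries and bars are means of 2. Vwf and the pericyte and smooth muscle list are both lowest in knockout VEH islets, and Mmrn1, the liver list and the other lymphatic list are highest in knockout STZ 24 h islets.

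Within the knockout genotype, STZ at 24 h moved all 10 genes. Relative to knockout VEH islets, 8 genes rose and 2 fell, beside 30.1% and 26.2% of all genes tested, with a median log2 fold change of 1.28. Pecam1 rose by 1.59 (SE 0.10, adjusted p = 1.5e-06) and Cdh5 by 1.92 (SE 0.13, adjusted p = 2.6e-06). Their levels were 169 and 171 CPM for Pecam1 after STZ, against 56.8 and 55.9 CPM after VEH, and 78.5 and 82.9 CPM for Cdh5 after STZ, against 21.6 and 21.1 CPM after VEH. Flt4 rose by 2.57 (SE 0.28, adjusted p = 6.96e-05) to 37.2 and 43.4 CPM after STZ, against 7.70 and 5.90 CPM after VEH. Tek rose by 0.96 (SE 0.11, adjusted p = 9.05e-05) and Vwf by 2.65 (SE 0.30, adjusted p = 9.19e-05). Each of these 5 genes had both STZ libraries above both VEH libraries, but the share of all genes separated in this way was not counted.

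Flt1 and Prox1 fell in the knockout islets at 24 h after STZ, and both were higher there under pan-endocrine scaling. Flt1 had a log2 fold change of -0.76 (SE 0.09, adjusted p = 7.05e-05), with 47.9 and 48.9 CPM after STZ and 81.0 and 83.5 CPM after VEH, and a value of 1.32 under pan-endocrine scaling. Prox1 had a log2 fold change of -0.62 (SE 0.11, adjusted p = 0.0015), with 27.6 and 29.3 CPM after STZ and 42.0 and 45.5 CPM after VEH, and a value of 1.46 under pan-endocrine scaling. Kdr, at 0.23 (SE 0.09, adjusted p = 0.0485), took the value -0.24 under total-count scaling, and its call ended in 10 of the 12 fits that left out a library. Plvap, at 0.88 (SE 0.33, adjusted p = 0.0483), lost its call in 7 of those 12 fits.

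Control islets at 24 h after STZ gave 1 call among the 10 genes, that of Mmrn1, with 0 lower, beside 5.41% and 2.15% of all genes tested. Pecam1 had 74.7 and 78.4 CPM in control STZ 24 h islets and 61.9 and 63.2 CPM in control VEH islets, and Flt4 had 12.5 and 12.6 CPM in control STZ 24 h islets and 7.84 and 6.58 CPM in control VEH islets. Neither pair of groups overlapped, but the adjusted p was 0.118 for Pecam1 (log2 fold change 0.29, SE 0.09) and 0.14 for Flt4 (log2 fold change 0.80, SE 0.27). The median of the 10 genes was 0.33, and 0.18 under pan-endocrine scaling.

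Mmrn1 was near 0 in VEH islets and present after STZ in both genotypes. Its counts were 3219 and 3128 in knockout STZ 24 h islets, against 15 and 0 in knockout VEH islets, and 1104 and 1121 in control STZ 24 h islets, against 9 and 0 in control VEH islets. The ratio of summed counts per unit of scaled depth was 547 in knockout islets, with a 95% exact interval of 331 to 978, and 186 in control islets, with an interval of 97.9 to 408, covering counting error only. All VEH counts came from 1 library of each genotype, VEH A. With VEH A alone the ratio was 291 in knockout and 95.1 in control islets, and with VEH B alone, at 0 counts, Mmrn1 was at least 1280-fold higher in knockout and at least 273-fold higher in control islets, against a floor of 3 counts in that library. The call held in knockout (adjusted p = 4.3e-05) and in control (adjusted p = 0.000983) islets. At 4 wk the ratio to VEH was 151 in knockout islets (interval 91.2 to 270; 1122 and 931 counts) and 9.87 in control islets (interval 5.04 to 22.1; 68 and 60 counts). With VEH A alone these ratios were 80.1 in knockout and 5.05 in control islets, and with VEH B alone they were at least 353 and at least 14.5. The 4 wk control value did not pass the test (adjusted p = 0.0762).

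Liver markers went with Mmrn1 in their highest and lowest STZ groups. In knockout islets platelet markers, like Mmrn1, were highest at 24 h after STZ, and they did not follow Mmrn1 in control islets. The liver list, of 10 genes, summed to 5.06 to 5.33 CPM in knockout VEH islets and 167 to 180 CPM in control VEH islets. It summed to 17100 to 17700 CPM in knockout STZ 24 h islets, 5020 to 5120 CPM in control STZ 24 h islets, 5400 to 5500 CPM in knockout STZ 4 wk islets and 1410 to 1580 CPM in control STZ 4 wk islets. Both Mmrn1 and the liver list were thus highest in knockout STZ 24 h islets and, of the 4 STZ groups, lowest in control STZ 4 wk islets. In VEH islets Mmrn1 had too few counts to be set against the liver list. Of 10 platelet markers, 0 were at 0 in both knockout STZ 24 h libraries and 3 in both control STZ 24 h libraries. They summed to 52.2 to 56.8 CPM in knockout STZ 24 h islets and 5.68 to 12 CPM in control STZ 24 h islets. Between these groups 3 of the 7 tested were higher and 1 lower, beside 23.7% and 19.4% of all genes tested. The platelet sum was 9.45 to 11.3 CPM in control VEH islets and 11.6 to 12.9 CPM in control STZ 4 wk islets. It was 5.07 to 12.1 CPM in knockout VEH islets and 17.0 to 23.3 CPM in knockout STZ 4 wk islets. The part of these tissues in the Mmrn1 result was not tested.

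The STZ effect at 24 h differed between the genotypes for 7 of the 10 genes in a test of the interaction, beside 21.1% of all genes called higher and 16.6% lower. Pecam1, Cdh5, Tek, Vwf and Flt4 had the larger value in knockout islets, and Flt1 and Prox1 the smaller one with TMM scaling and the larger one with pan-endocrine scaling. Vwf differed by 2.83 (SE 0.41, adjusted p = 0.000709), with STZ effects of 2.65 in knockout and -0.18 in control islets. For Tek, the interaction was 0.60 (SE 0.16, adjusted p = 0.0152) and took the value -0.19 under total-count scaling. The interaction calls of Tek and Prox1 ended in some of the fits that left out a library. Kdr had nearly the same STZ effect in knockout (0.23) and control (0.24) islets, with an interaction of -0.01 (SE 0.12), and Mmrn1 had an interaction of 1.58 with an SE of 1.43.

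Between 24 h and 4 wk after STZ, the knockout values of most of the 10 genes fell, among them the junction genes Pecam1 and Cdh5. In knockout islets, 1 gene was higher and 6 were lower at 4 wk than at 24 h, beside 20.2% and 15.5% of all genes tested. Pecam1 fell by 1.11 on the log2 scale (SE 0.09, adjusted p = 4.55e-05), to 73.7 and 83.4 CPM at 4 wk, against 169 and 171 CPM at 24 h. Cdh5 fell by 1.39 (SE 0.12, adjusted p = 6.11e-05) and Flt4 by 2.16 (SE 0.28, adjusted p = 0.000451). The other genes called lower were Kdr (-0.33), Tek (-0.51) and Mmrn1 (-1.84). Each of their calls ended in at least 1 fit that left out a library. Flt1 was higher at 4 wk by 0.66 (SE 0.09, adjusted p = 0.000444), and its value was -0.77 under pan-endocrine scaling. For Pecam1, Cdh5, Flt4 and Flt1 the 2 libraries at 4 wk did not overlap those at 24 h, which was not counted over all genes.

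In control islets 0 genes were higher and 2 lower at 4 wk than at 24 h, beside 1.27% and 4.22% of all genes tested. Vwf fell by 1.64 (SE 0.29, adjusted p = 0.0124), to 3.24 and 4.80 CPM at 4 wk, against 12 and 13.1 CPM at 24 h. Mmrn1 fell by 4.23 (SE 0.71, adjusted p = 0.0092). Each of these 2 calls ended in fits that left out 1 library, 3 of 12 for Vwf and 2 of 12 for Mmrn1. The change between the 2 times differed between genotypes for 6 of the 10 genes, 1 larger and 5 smaller in knockout islets, beside 8.79% and 5.09% of all genes tested.

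At 4 wk after STZ, knockout islets still had more of 5 genes than knockout VEH islets. Counts were 5 higher and 1 lower, beside 24.1% and 11.7% of all genes tested. Pecam1 had a log2 fold change of 0.48 (SE 0.09, adjusted p = 0.00372), Cdh5 of 0.53 (SE 0.12, adjusted p = 0.00873) and Tek of 0.45 (SE 0.11, adjusted p = 0.0123). All 3 lost their call under total-count scaling, at an adjusted p of 0.073, 0.0762 and 0.187. Vwf was higher by 2.76 (SE 0.30, adjusted p = 0.000129), and Prox1 had a log2 fold change of -0.67 (SE 0.11, adjusted p = 0.00161) that was -0.01 under pan-endocrine scaling.

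Control STZ 4 wk islets differed from control VEH islets in 3 genes, 2 higher and 1 lower, beside 4.98% and 4.01% of all genes tested. Kdr was higher by 0.53 (SE 0.09, adjusted p = 0.00515), with 178 and 175 CPM in control STZ 4 wk islets and 119 and 126 CPM in control VEH islets. Tek was higher by 0.50 (SE 0.11, adjusted p = 0.024), a call that ended in 7 of the 12 fits that left out a library. Both calls also ended under pan-endocrine scaling, where the log2 fold change was 0.17 for Kdr (adjusted p = 0.186) and 0.14 for Tek (adjusted p = 0.452). Vwf had a log2 fold change of -1.83 (SE 0.29, adjusted p = 0.00478). Without control VEH A the count was 1 in place of 3.

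The order of the 6 groups by mean CPM differed among the genes. Pecam1, Cdh5, Tek, Plvap, Mmrn1 and Flt4 were highest in knockout STZ 24 h islets, Kdr and Flt1 in control STZ 4 wk islets, Vwf in knockout STZ 4 wk islets and Prox1 in knockout VEH islets. For Pecam1 the order ran from knockout STZ 24 h (170 CPM), knockout STZ 4 wk (78.5), control STZ 24 h (76.6), control STZ 4 wk (70.9) and control VEH (62.5) to knockout VEH (56.3), and only the second and the third overlapped. For Plvap every pair of neighbouring groups overlapped, and its SD in knockout STZ 4 wk islets was 26.4 CPM around a mean of 62.8 CPM. Kdr in control STZ 4 wk (177 CPM) and knockout STZ 24 h islets (175 CPM) overlapped as well.

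Likeness of profiles was measured as the root mean square difference of log2 CPM, each gene centred on its own mean over the 12 libraries, among 13151 genes with a mean of at least 2 CPM. Pecam1 and Cdh5 were the closest pair of the 10 genes, at 0.14. Flt1 was nearest to Prox1 among the 10 genes, at 0.30, and Flt1 and Mmrn1 were the farthest pair, at 4.05. Flt4 was nearest to Cdh5 among the 10 genes, at 0.32, and lay 1.05 from Prox1 and 3.26 from Mmrn1. Outside the 10 genes, the profile nearest to Pecam1 was that of Gcdh (0.09), then Slc44a2 (0.10) and Ifnar2 (0.10). Cdh5 had Ldb2 and Bid (0.14 each) after Pecam1, Kdr had Xxylt1 (0.10), Sema6d (0.11) and Alg14 (0.11), and Flt1 had Gbf1 (0.07), Rsph3a (0.08) and Herc2 (0.08). For Tek they were Blvra (0.09), Clec14a (0.13), itself an endothelial surface gene, and Me1 (0.13), and for Plvap they were Dbnl, Mgat1 and Pex11g (0.12 each).

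The least matched profiles were those of Vwf and Mmrn1. Vwf had Pbld1 (0.34), Krt23 (0.38) and Ahcy (0.39) as its nearest genes, and Mmrn1 had F11 (1.08), Agmat (1.17) and Gckr (1.21). Prox1 had Pnn (0.07), Scaf8 (0.08) and Prr14l (0.08), and Flt4 had Serpinh1 (0.18), Adssl1 (0.20) and Fah (0.21). With 12 libraries and 13151 genes, close profiles turn up for most genes.

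Other endothelial genes, from lists of related function, followed the 10 genes in part at 24 h after STZ. Of 20 junction and surface genes tested, 10 were higher and 3 lower in knockout than in control islets. Over all genes tested, 23.7% were higher and 19.4% lower. The median log2 fold change of the 20 genes was 0.63. Under pan-endocrine scaling 20 were higher, as were 14866 of all 17411 genes tested. S1pr1, the receptor for sphingosine 1-phosphate, was higher by 1.81 (SE 0.13, adjusted p = 1.07e-05) and Ecscr, an endothelial adhesion protein, by 2.06 (SE 0.20, adjusted p = 5.7e-05). The 3 lower genes, of which Podxl and Emcn are named after their values were seen, were Esm1 (-1.18, SE 0.16, adjusted p = 0.000366), Emcn (-0.78, SE 0.17, adjusted p = 0.00593) and Podxl (-0.51, SE 0.09, adjusted p = 0.00163), which all took the opposite sign under pan-endocrine scaling. Esm1, a secreted proteoglycan of sprouting tips, had 33.9 and 29.6 CPM in knockout STZ 24 h islets, against 72.8 and 70.7 CPM in control STZ 24 h islets. Emcn, a sialomucin of capillaries and veins, had 35.2 and 32.4 CPM in knockout STZ 24 h islets and 59.3 and 57.0 CPM in control STZ 24 h islets.

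Transcription factors of endothelial cells were higher as a list. Of 14 tested, 11 were higher and 0 lower in knockout STZ 24 h islets, beside 23.7% and 19.4% of all genes tested. Their median was 1.19. The summed level was 291 to 300 CPM in knockout STZ 24 h islets, against 87.2 to 89.3 CPM in control STZ 24 h islets. Ets1 was higher by 2.51 (SE 0.13, adjusted p = 3.3e-06) and Fli1 by 2.55 (SE 0.17, adjusted p = 9.47e-06), both ETS factors that lymphocytes and macrophages also express. The flow-responsive factors Klf2 and Klf4 were higher by 1.46 (SE 0.19, adjusted p = 0.00035) and 0.92 (SE 0.13, adjusted p = 0.00043). Lymphoid and macrophage sums were also highest in these 2 libraries, and their part in these values was not tested.

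Among 12 ligands and co-receptors of the VEGF and angiopoietin pathways, 4 were higher and 2 lower in knockout than in control islets at 24 h after STZ. Over all genes tested, 23.7% were higher and 19.4% lower. The median of the 12 was 0.50. Those with the smallest adjusted p were Nrp2, the co-receptor that pairs with FLT4 (log2 fold change 1.72, SE 0.11, adjusted p = 7.04e-06), and Angptl4, an inhibitor of lipoprotein lipase (3.52, SE 0.27, adjusted p = 1.79e-05). Vegfc, the ligand of FLT4, had 9.62 and 8.82 CPM in knockout STZ 24 h islets, against 4.05 and 4.08 CPM in control STZ 24 h islets (1.18, SE 0.20, adjusted p = 0.00144). Pgf, a ligand of FLT1, had 7.69 and 7.17 CPM in knockout STZ 24 h islets and 14.8 and 15.6 CPM in control STZ 24 h islets (-1.03, SE 0.16, adjusted p = 0.00104). Vegfa, the main ligand of KDR and FLT1, is named after its values were seen. It had 85.9 and 55.9 CPM in knockout STZ 24 h islets and 184 and 192 CPM in control STZ 24 h islets (-1.41, SE 0.34, adjusted p = 0.0098). With TMM scaling, ligand and receptor went the same way for Vegfc and Flt4, for Pgf and Flt1 and for Vegfa and Flt1. They went opposite ways for Vegfa and Kdr, whose call was lost under total-count scaling. These ligands were picked by adjusted p or after their values were seen, and the others listed were not set against receptors. Beta-cell markers had a median log2 fold change of -2.37 in this comparison, and their part in the Vegfa value was not tested. The lower values of Pgf and Vegfa refer to TMM scaling, since pan-endocrine scaling called 10 of the 12 higher and 0 lower. That scaling called 14866 of all 17411 genes tested higher.

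Of 10 Notch pathway genes of vessels, 3 were higher and 1 lower at 24 h after STZ, with a median of -0.00. Over all genes tested, 23.7% were higher and 19.4% lower. Jag1, a Notch ligand, was higher by 0.75 (SE 0.11, adjusted p = 0.000738), and the target Hes1 by 0.82 (SE 0.19, adjusted p = 0.0073). Hey2, a target linked to arteries, had a log2 fold change of -0.95 (SE 0.28, adjusted p = 0.0251). Under pan-endocrine scaling 9 of the 10 were called higher and 0 lower, beside 14866 of all 17411 genes called higher.

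Of 10 other lymphatic markers tested, 9 were higher and 0 lower in knockout STZ 24 h islets, beside 23.7% and 19.4% of all genes tested. Their median was 2.66. They summed to 486 to 504 CPM in knockout STZ 24 h islets and 62.2 to 67.0 CPM in control STZ 24 h islets. Lyve1, the hyaluronan receptor of lymphatic capillaries, had 167 and 166 CPM in knockout STZ 24 h islets, against 17.0 and 18.5 CPM in control STZ 24 h islets (3.23, SE 0.13, adjusted p = 1.23e-06). Stab2, a scavenger receptor, had 67.3 and 66.6 CPM in knockout STZ 24 h islets and 6.55 and 6.77 CPM in control STZ 24 h islets (3.33, SE 0.28, adjusted p = 3.21e-05). Lyve1 and Stab2 are also known from the sinusoids of liver and lymph node, whose marker lists were highest in the same 2 libraries, and their part in these values was not tested. At 4 wk, 8 of the 10 other lymphatic markers were higher and 1 was lower in knockout islets, with a median of 1.26. The shares over all genes tested were 19.9% and 7.89%. The lower marker was Lyve1 (-0.97, SE 0.12, adjusted p = 0.000397). It had 7.04 and 8.01 CPM in knockout STZ 4 wk islets and 15.5 and 13.9 CPM in control STZ 4 wk islets. Under pan-endocrine scaling 8 of the 10 were called higher and 0 lower at 4 wk. That scaling called 8898 of all 17411 genes tested higher and 109 lower.

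Of 9 genes listed for inflamed endothelium, 8 were higher and 0 lower at 24 h after STZ, beside 23.7% and 19.4% of all genes tested. Their median was 3.20. Their sums were 248 to 249 CPM in knockout STZ 24 h islets and 20.3 to 21.0 CPM in control STZ 24 h islets. The leukocyte adhesion molecules Vcam1 and Icam1 were higher by 4.16 (SE 0.22, adjusted p = 3.3e-06) and 3.20 (SE 0.25, adjusted p = 2.17e-05). Ackr1, a chemokine receptor of venules, was higher by 1.94 (SE 0.23, adjusted p = 0.000186). Macrophage, lymphoid and liver sums were also highest in the 2 knockout STZ 24 h libraries, and their part in these values was not tested. At 4 wk 7 of the 9 were higher and 0 lower, beside 19.9% and 7.89% of all genes tested, with a median of 2.23. In VEH islets the list went the other way, with 0 higher and 6 lower in knockout islets and a median of -1.19. The shares over all genes tested were 1.96% and 7.68%. The list sums were 6.33 to 6.89 CPM in knockout VEH islets and 18.3 to 21.1 CPM in control VEH islets.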

How the data were processed

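Islet libraries were made with a stranded mRNA kit and read as 100 x 2 paired reads, per the labels' protocols. The authors deposited a table of expected counts (each estimated count a gene total), with no scaling for depth. Per the file headers, StringTie 1.3.6 was run with its strand option against a fixed annotation, on mm10 per the submitters' processing notes. No aligner is named in the sources used here. The transcript files deposited by the authors also hold coverage and TPM. Deposited counts of the members' transcripts equal coverage times length over 75, within 1 count in 166 of 166 values of at least 100 counts, so a count is not 1 read of the stated length.

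Counts were rounded and fitted in R 4.3.3 with edgeR 4.0.16: filterByExpr (17411 genes), TMM factors of 0.825 to 1.21, and robust quasi-likelihood F tests over 6 group means (6 residual degrees of freedom, common dispersion 0.0493). P-values were adjusted by Benjamini-Hochberg over all genes within each of 11 comparisons, and 0.05 was the threshold. CPM, fold changes and their SE (log2 fold change divided by the square root of F) were computed here. The code was tested on simulated counts. Replicates A and B of a group were not copies, with a chi-square over degrees of freedom of at least 25.1. Alternatives were DESeq2 1.42.0 size factors and Wald test, total-count and pan-endocrine scaling, no filter (19624 genes), a replicate block and each of the 12 libraries left out. Intervals on counts are exact and cover counting error only. Motif, likeness and exon summaries used Python 3.11.15, numpy 2.4.6 and pandas 2.3.3, and figures matplotlib 3.10.9.

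The 10 genes are all named. Of every other list the counts and median are given, with up to 4 genes of smallest adjusted p, and for each of the 10 genes the 3 of most similar profile. Arntl is named as the targeted gene. Other genes are said to be chosen after their values were seen. The 10 genes and the lists were chosen with earlier results of these data known. Log2 fold changes between groups are always the first-named group over the second.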

Additional observations from a re-analysis of the deposited data

Results flagged for a closer look

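The STZ effect at 24 h, as a log2 fold change against VEH, differed between knockout and control islets in edgeR's quasi-likelihood test of the interaction for 7 of the 10 genes. The difference, knockout effect minus control effect, was 1.3 for Pecam1 (adjusted p = 8.49e-05), 1.55 for Cdh5 (adjusted p = 0.000147), 0.60 for Tek (adjusted p = 0.0152), 2.83 for Vwf (adjusted p = 0.000709) and 1.77 for Flt4 (adjusted p = 0.00605). It was -0.76 for Flt1 (adjusted p = 0.00111) and -0.55 for Prox1 (adjusted p = 0.0243), which took the values 1.47 and 1.68 under pan-endocrine scaling, while Tek took -0.19 under total-count scaling. The calls of Tek and Prox1 ended in some of the fits that left out a library. The Vwf difference includes its gap between the VEH groups, where knockout libraries had 2.87 and 2.48 CPM and control libraries 15.2 and 13.3 CPM.

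The change between 24 h and 4 wk after STZ also differed between the genotypes, for 6 of the 10 genes. The difference was -1.0 for Pecam1 (adjusted p = 0.0019), -1.13 for Cdh5 (adjusted p = 0.00377), -0.63 for Kdr (adjusted p = 0.0114), -0.65 for Tek (adjusted p = 0.0267) and -1.81 for Flt4 (adjusted p = 0.0153). Vwf had the positive value, 1.76 (adjusted p = 0.0225). The calls of Kdr, Tek, Vwf and Flt4 ended in some of the fits that left out 1 library. Both sets of differences use the 2 knockout STZ 24 h libraries, which held the most liver, lymphoid and macrophage RNA; their part was not tested.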

How the results depend on the processing

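With 2 libraries a group, depth is not the limit except for Mmrn1 in VEH islets, and no list median given here moved when genes at 0 in a group were set to 3 counts over that group. Of 66 results of single genes, 64 kept direction and call with DESeq2 size factors, 62 without the filter, 59 with the DESeq2 Wald test, 53 with the replicate block and 46 each with pan-endocrine and total-count scaling; where not stated above, the cause was not tested. Pan-endocrine scaling reversed Kdr in VEH islets (-0.06), Flt1 (1.15) and Prox1 (1.58) between genotypes at 24 h, Kdr (0.33) and Flt1 (0.31) at 4 wk, Flt1 (1.32) and Prox1 (1.46) in the STZ 24 h effect in knockout, Flt1 in 4 wk against 24 h in knockout (-0.77), the 24 h interactions of Kdr (2.22), Flt1 (1.47) and Prox1 (1.68), and that of Flt1 between the times (-0.84). Total-count scaling reversed Kdr in the STZ 24 h effect in knockout (-0.24) and the 24 h interactions of Tek (-0.19) and Plvap (-0.44), and both DESeq2 settings reversed the 24 h interaction of Kdr (0.07). Counts of the 10 genes called moved most in VEH islets, with 1 in the fit reported, 7 with total counts, 4 with pan-endocrine scaling, 2 with the Wald test and 4 with the replicate block. Pan-endocrine scaling gave 9 in place of 4 between genotypes at 4 wk, and total counts gave 6 in place of 1 (STZ 24 h, control), 4 in place of 7 (4 wk against 24 h, knockout) and 8 in place of 3 (4 wk against VEH, control). The Wald test gave 6 in place of 1, 4 in place of 2 (4 wk against 24 h, control) and 5 in place of 3. The replicate block gave 10 calls between genotypes at 24 h, 6 at 4 wk and 5 for 4 wk against 24 h in knockout. The letters were not treated as pairs: the gap A minus B correlated across 17411 genes between genotypes at 0.12 (VEH), 0.05 (STZ 24 h) and 0.48 (STZ 4 wk), genes not being independent replicates, and the labels name no shared litter or day. Leaving out 1 library gave 2 to 5 calls between genotypes at 4 wk (2 without control STZ 4 wk A), 1 to 2 for STZ 24 h in control (2 without either knockout STZ 4 wk library), 4 to 7 for 4 wk against 24 h in knockout (4 without knockout STZ 24 h A), 0 to 2 in control (0 without control STZ 4 wk A, 1 without control STZ 4 wk B or either control STZ 24 h library), 1 to 4 for 4 wk against VEH in control (1 without control VEH A) and 2 to 7 for the interaction between the times (2 without either control STZ 24 h library or knockout STZ 24 h B, 3 without knockout STZ 24 h A). The 24 h interaction of Kdr ranged from -0.06 to 0.04, and that of Mmrn1 from -3.99 without control VEH A to 7.28 without knockout VEH A.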

Other observations

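Madcam1, the mucosal address that lymphocytes bind on venules of lymphoid tissue, was chosen after its values were seen. It had 405 and 548 counts in knockout STZ 24 h islets, against 0 and 0 counts in control STZ 24 h islets. It had 30 and 81 counts in knockout STZ 4 wk islets and 0 and 21 counts in control STZ 4 wk islets, and 0 and 3 counts in knockout VEH islets and 0 and 0 counts in control VEH islets. The 2 knockout STZ 24 h libraries were thus above all others. Lymphoid markers were also highest in these 2 libraries, and their part in the Madcam1 counts was not tested.

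Genes of pericytes and smooth muscle went both ways at 24 h after STZ. Abcc9 and Kcnj8, the subunits of the potassium channel of pericytes, were higher in knockout than in control islets by 2.64 (SE 0.12, adjusted p = 2.09e-06) and 2.78 (SE 0.21, adjusted p = 1.5e-05) as log2 fold changes in edgeR's test. Acta2 had 24.1 and 28.4 CPM in knockout STZ 24 h islets and 23.3 and 24.6 CPM in control STZ 24 h islets, which overlap. Rgs5, a regulator of G-protein signalling in pericytes, had a log2 fold change of -0.39 (SE 0.13, adjusted p = 0.0394). Of the 12 genes of the list, 3 were higher and 1 lower, beside 23.7% and 19.4% of all genes tested. Their median was 0.15. Under pan-endocrine scaling 11 were higher and 0 lower, beside 14866 of all 17411 genes called higher.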
